A study of Mus musculus with 15 samples.

Results

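The expression of miR-451, miR-144 and miR-486 (mmu-miR-451, mmu-miR-144 and mmu-miR-486), miRNAs that are abundant in red blood cells, was followed in mouse liver grafts as a measure of red blood cell RNA. They were chosen by name, and they are 3 of the 567 mouse miRNAs on the array. All 3 were represented by 2 probes with 10 spots each. Only miR-451 and miR-144 were among the 103 miRNAs tested, because a miRNA entered the test if some group detected it on each of its 3 arrays.

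The study asked which miRNAs change in a liver allograft that is first attacked and later accepted. Livers of male B10.BR mice (H2-Kk) were transplanted into male B10.D2 mice (H2-Kd), which are mismatched at the major histocompatibility complex, and no immunosuppressive drug was given. Allografts were taken on day 5, day 8, day 14 and day 100, and syngeneic grafts on day 5, with 3 mice and 3 arrays in each of the 5 groups. The strain labels of the syngeneic arrays carry the same B10.BR and B10.D2 pair as the allografts, so their titles alone were used to place them in the syngeneic group, and the strain used for them is not settled by the labels. The only syngeneic grafts are from day 5, so time after surgery and the allogeneic response cannot be told apart on the later days. The donor livers were flushed with saline before transplantation per the methods of the study, whereas blood of the recipient at harvest was not described.

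In the red blood cell lineage, miR-144 and miR-451 are cut from a shared primary transcript that the factor GATA-1 switches on. The miR-144 precursor is processed by Dicer, as most are, whereas the short hairpin of miR-451 bypasses Dicer and is cut by the slicer protein Ago2. Mature red blood cells have no nucleus but keep miRNAs, and miR-451 is among the most abundant of these. MiR-486 comes from the Ank1 gene and is also made in muscle. Whole grafts were profiled, so a change in the number of cells of a type and a change in the RNA per cell cannot be told apart.

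The mature sequences and hairpins are shown because the 2 neighboring miRNAs differed in their values below. Of the 3 miRNAs, 2 were matched by name to an entry of the RefSeq miRNA table (GRCm38.p6). The array's miR-451 and miR-144 were taken to be its miR-451a and miR-144-3p by current naming. This match was not tested against probe sequences. In the mature sequences, written 5′ to 3′, capitals mark the seed, which is bases 2 to 8 and guides the pairing with target mRNAs. The seed of miR-451 and that of miR-144 each belonged to no other of the 1679 mature names in the table. Bases 2 to 7 of miR-144-3p were shared only with miR-101a-3p, a miRNA of the liver, which is shown for this reason.

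mmu-miR-451a: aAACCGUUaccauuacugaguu

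mmu-miR-144-3p: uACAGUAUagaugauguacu

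mmu-miR-101a-3p: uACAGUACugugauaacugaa

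MiR-451a lies at chr11:78073186-78073207 and miR-144-3p at chr11:78073047-78073066, both on the plus strand, and miR-101a-3p lies at chr4:101346957-101346977 on the minus strand. In the hairpins, capitals mark the mature miRNA. It fills positions 17 to 38 of the 72 bases of Mir451a and positions 43 to 62 of the 66 bases of Mir144. Mir144 (chr11:78073005-78073070) and Mir451a (chr11:78073170-78073241) are 99 bases apart.

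Mir144 hairpin: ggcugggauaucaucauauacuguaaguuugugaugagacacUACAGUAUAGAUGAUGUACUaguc

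Mir451a hairpin: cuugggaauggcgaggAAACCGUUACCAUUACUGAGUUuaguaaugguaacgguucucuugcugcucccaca

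The arrays differed in how many mouse miRNAs they detected, from 60 to 115, and in additive error, the scanner software's estimate of background noise, from 2.67 to 13.1 intensity units. The highest error belonged to allograft day 100 replicate 1, which stood apart from the other 14 arrays (2.67 to 3.66 units) and also detected the fewest miRNAs. The comparisons of day 100 are given below with and without this array. The arrays lay on 2 slides. The 8 arrays of slide 1 held allograft days 8 and 14 and syngeneic replicates 1 and 2, and the 7 arrays of slide 2 held allograft days 5 and 100 and syngeneic replicate 3. Values fitted with the slide as a block are therefore given beside the comparisons they change. The hepatocyte miRNAs miR-122, miR-192 and miR-194 were detected on all 15 arrays, as the label liver requires.

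MiR-451 was the only one of the 3 detected on all 15 arrays, and all 284 of its usable spots were well above background. Its 2 probes ran in parallel, with a log2 ratio of probe 2 over probe 1 between 0.58 and 0.74 on the 15 arrays. MiR-144 was detected on 10 arrays, with 202 of 293 spots well above background. MiR-486 was detected on 1 array only, with 6 of 294 spots. Detection follows the brightness of the probes, so these counts do not compare the course of the 3 markers. Only miR-451 was detected in every group on all of its arrays.

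The level of miR-451 is given as the scaled log2 signal, which is the signal relative to the 75th percentile of that array, taken over the 52 miRNAs that every array detected. In the syngeneic grafts it was 0.16, -1.18 and -0.69 in replicates 1 to 3. It was 0.40, 0.049 and 0.80 in the allografts on day 5, and 0.61, 0.65 and 0.66 on day 8. The syngeneic arrays were widely spread and the day 8 arrays lay almost on top of each other. On day 14 the scaled log2 signals were 0.95, 0.78 and 1.21. On day 100 they were 0.25, -0.66 and 0.48. All 3 day 14 arrays were above every array of the other 4 groups except allograft day 5 replicate 3, which was at 0.80 and so above day 14 replicate 2.

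**Figure D1:**
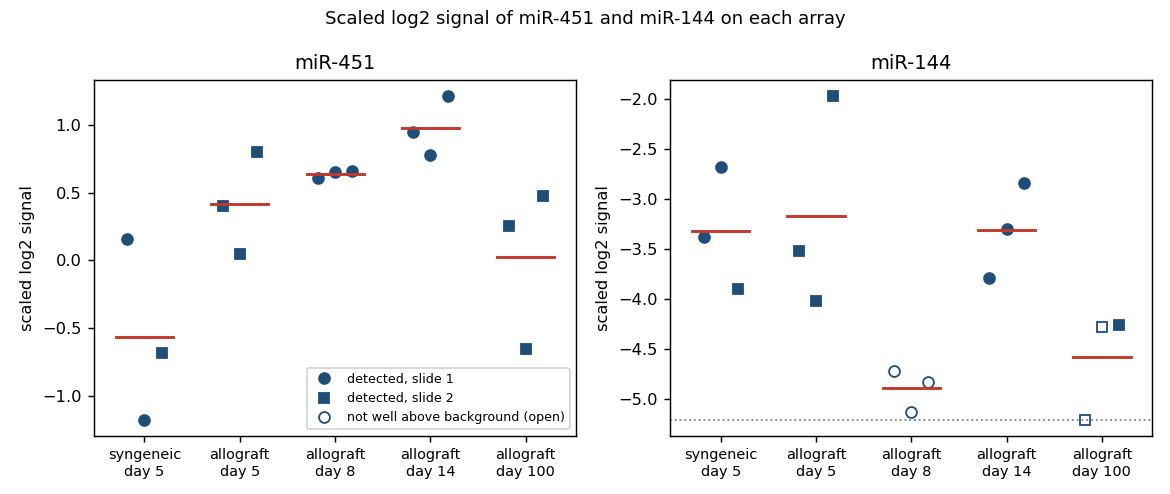
Each point is the scaled log2 signal of miR-451 (left) or miR-144 (right) on 1 array, the red lines are group means, the symbols give the slide, open symbols mark arrays not well above background, and the dotted line is the floor of -5.21. MiR-451 was highest on day 14 (0.78 to 1.21), whereas miR-144 was not well above background on any day 8 array.

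The group means of miR-451 were -0.57 ± 0.67 in the syngeneic grafts and 0.42 ± 0.37, 0.64 ± 0.029, 0.98 ± 0.22 and 0.024 ± 0.60 in the allografts of days 5, 8, 14 and 100 (scaled log2 signal, SD, n = 3). The levels of miR-451 differed among the 5 groups in limma's moderated F test (adjusted p = 0.012, and 0.026 with the slide as a block), as did 64.1% of the miRNAs tested. In order from lowest to highest the groups were syngeneic, day 100, day 5, day 8 and day 14. No pair of neighbors in this order passed the test. The adjusted p in limma was 0.17 for day 100 over syngeneic, 0.43 for day 5 over day 100 (0.40 without day 100 replicate 1), 0.72 for day 8 over day 5 and 0.63 for day 14 over day 8, although the 3 day 14 arrays were above the 3 day 8 arrays. Arrays were ordered in this way for 19.4% of the miRNAs. Between day 14 and day 5 the log2 fold change of miR-451 was 0.56 ± 0.34 (limma, adjusted p = 0.26) and that of miR-144 was -0.14 ± 0.47 (adjusted p = 0.88), with overlapping arrays for both.

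MiR-451 was higher than in the syngeneic grafts by 1.21 ± 0.34 (log2 fold change, standard error) on day 8, which is 2.31-fold (limma, adjusted p = 0.013). It was higher by 1.55 ± 0.34, or 2.93-fold, on day 14 (limma, adjusted p = 0.0023). On both days all 3 allograft arrays were above all 3 syngeneic arrays. As background, 23.3% of the miRNAs tested passed as higher on day 8 and 27.2% on day 14, and 33% had allograft arrays wholly above the syngeneic arrays on day 8, the same percentage as on day 14. MiR-451 was 9th by size among the 63 miRNAs with a positive change on day 8 and 8th among 56 on day 14. MiR-451 was among the 10 miRNAs that the study chose from these same arrays, so its direction here is not independent evidence. The study also measured miR-451 by RT-PCR and reported that it rose and fell with the level of inflammation.

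Both changes of miR-451 were also seen within slide 1, where 2 syngeneic arrays could be set against the allografts. There the log2 fold change was 1.15 on day 8 (limma, adjusted p = 0.031) and 1.49 on day 14 (limma, adjusted p = 0.010). Over all alternatives run, the adjusted p of miR-451 ranged from 0.0014 to 0.14 on day 8 and from 0.00025 to 0.069 on day 14. The day 8 call depended on syngeneic replicate 2, the lowest of the 15 arrays for miR-451. Without it the log2 fold change was 0.91 (limma, adjusted p = 0.063).

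On day 5, miR-451 was higher by 0.99 ± 0.34 on the log2 scale, or 1.98-fold, and the adjusted p in limma was 0.049. On this day 18.4% of the miRNAs tested passed as higher. The arrays overlapped, because syngeneic replicate 1 (0.16) was above allograft replicate 2 (0.049). The day 5 allografts and 2 of the 3 syngeneic arrays were on different slides. Blocking on slide gave a log2 fold change of 1.10 ± 0.49, which did not pass the test (limma, adjusted p = 0.17), and it passed under 11 of 32 alternatives, with adjusted p from 0.0084 to 0.32. When single arrays were left out, it passed only without syngeneic replicate 1, allograft day 5 replicate 2, or day 100 replicate 2 or 3. On day 100 the log2 fold change was 0.59 ± 0.34 (limma, adjusted p = 0.17) and the arrays overlapped, with 16.5% of the miRNAs passing as higher. It passed without syngeneic replicate 1 (0.96, adjusted p = 0.035) and without day 100 replicate 2 (0.93, adjusted p = 0.047). Without the noisy day 100 replicate 1 it was 0.48 (adjusted p = 0.34).

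MiR-451 was lower on day 100 than on day 14. The difference of day 14 minus day 100 was 0.96 ± 0.34 on the log2 scale, or 1.94-fold, and the 3 day 14 arrays were above the 3 day 100 arrays (limma, adjusted p = 0.032). Of the miRNAs tested, 33% passed as higher on day 14 than on day 100 and 39.8% did not overlap in that direction. The 2 groups were hybridized on separate slides. A fit that blocks on slide gave a difference of 0.78 ± 0.63 (limma, adjusted p = 0.41). It also rested on day 100 replicate 2, the lowest allograft array, without which it was 0.62 (limma, adjusted p = 0.14), and the call was also lost without day 14 replicate 1 (0.97) or replicate 3 (0.84). Without the noisy day 100 replicate 1 it was 1.07 (adjusted p = 0.040). The alternatives run gave an adjusted p from 0.012 to 0.41.

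MiR-144, the neighbor of miR-451, was dim throughout. In the syngeneic grafts its scaled log2 signal was -3.38, -2.69 and -3.91 in replicates 1 to 3, and on day 5 it was -3.53, -4.03 and -1.97 in the allografts. All 6 of these arrays detected it, and the 2 groups overlapped fully, with the single highest value of all 15 arrays on allograft day 5 replicate 3. On day 8 the measured values were -4.72, -5.13 and -4.83, and none of the 3 arrays was well above background. On day 14 the scaled log2 signals were -3.79, -3.30 and -2.85, with miR-144 detected on all 3 arrays. On day 100 they were -5.21, -4.28 and -4.27. Of these, the first was at the floor because both probes read below 0 on the noisy replicate 1, at -15.0 and -8.10 units. The median of the 1421 miRNA probes that no array detected was -22.1 units there, against -1.28 to -0.22 on the other arrays. The floor value therefore does not give a level of miR-144 on replicate 1. Replicate 3 was the only array of day 100 on which miR-144 was detected.

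In unscaled units the 3 day 8 arrays read 27.2, 22.1 and 29.1 for miR-144, against 49.3, 61.4 and 41.1 in the syngeneic grafts. The same 3 arrays read 1094, 1223 and 1311 for miR-451, against 574, 175 and 382 in the syngeneic grafts. The day 8 arrays were thus below every syngeneic array for miR-144 and above every syngeneic array for miR-451, also before any scaling. Both probes of miR-144 fell below the detection limit together, and on the 10 arrays that detected it the log2 ratio of its 2 probes lay between 0.11 and 0.49.

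**Figure D2:**
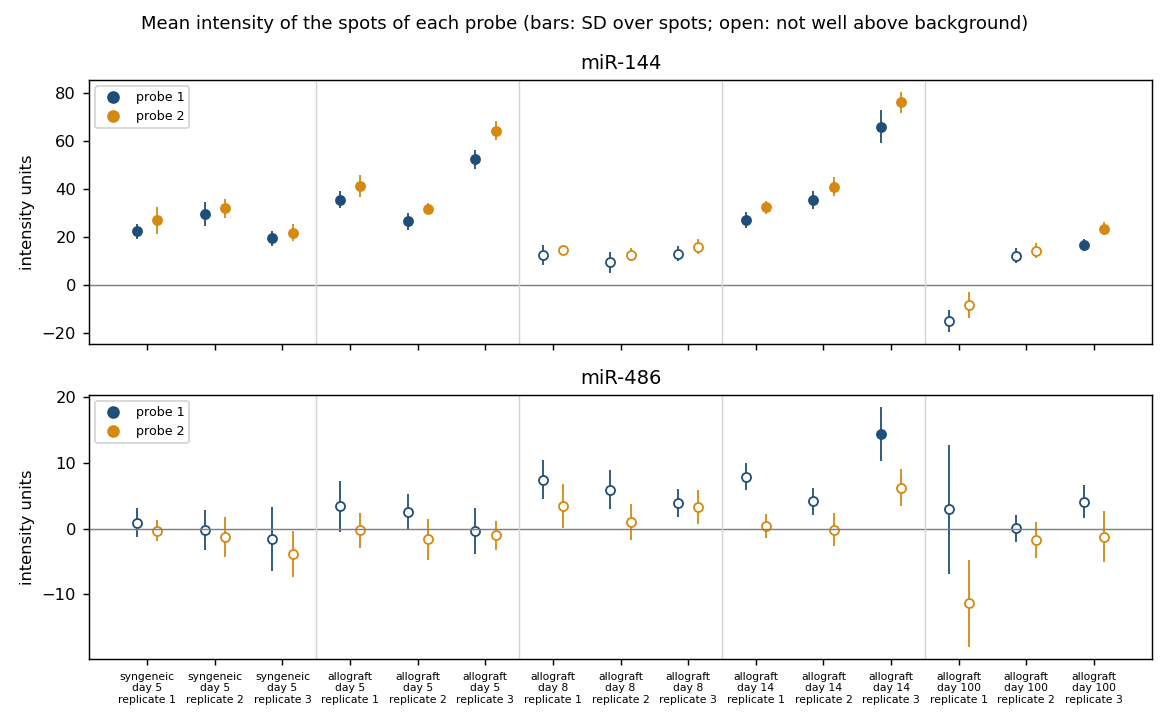
Points are the mean unscaled intensity of the spots of each probe on each array for miR-144 (top) and miR-486 (bottom), bars are the SD over up to 10 spots, and open points mark probes not well above background. Both miR-144 probes were open on all 3 day 8 arrays, and a miR-486 probe was filled only on allograft day 14 replicate 3.

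The levels of miR-144 differed among the 5 groups (moderated F test in limma, adjusted p = 0.015), as did 64.1% of the miRNAs tested. On day 8 it was lower than in the syngeneic grafts by the measured values, with a log2 fold change of -1.57 ± 0.47 (limma, adjusted p = 0.018). By these values miR-144 was 2.97-fold higher in the syngeneic grafts. Since no day 8 array was well above background, the size of this change is not settled. The log2 fold change ran from -1.86 to -0.71 over all alternatives. A bound was sought by entering each dim array with its own signal or the lowest signal detected on it, whichever was higher. This left the day 8 mean at -4.90 and the change at 2.97-fold, so it set no separate limit. The 3 day 8 arrays were all below the 3 syngeneic arrays. Of the miRNAs tested, 17.5% passed as lower on day 8 and 18.4% did not overlap in that direction.

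Within slide 1 the log2 fold change of miR-144 on day 8 was -1.86 (limma, adjusted p = 0.0027). Blocking on slide must give the same estimate, because all day 8 arrays were on slide 1, so it is not a second check (adjusted p = 0.015). Leaving out syngeneic replicate 3 gives this estimate as well. The alternatives run gave an adjusted p from 0.0027 to 0.21. The call was lost without syngeneic replicate 2, with a log2 fold change of -1.25 (limma, adjusted p = 0.086), and without day 8 replicate 2, with -1.45 (adjusted p = 0.067). Where the background was corrected by the normexp method instead, the log2 fold change was -0.71 and did not pass.

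MiR-144 did not pass the test on the other days. Its log2 fold change over the syngeneic grafts was 0.15 on day 5, with a 95% interval from -0.87 to 1.17, and 0.012 on day 14, with an interval from -1.01 to 1.03. Both intervals reach beyond 1 log2 unit upward, and the sign on both days turned under some settings listed below. On day 100 the log2 fold change was -1.26 ± 0.47, with the 3 arrays below the syngeneic arrays, and it did not pass (limma, adjusted p = 0.056). Of the miRNAs tested, 16.5% were below the syngeneic arrays in this way on day 100. Without the noisy replicate 1 of day 100 the log2 fold change was -0.95, and blocking on slide gave -0.68 (limma, adjusted p = 0.61). It passed without syngeneic replicate 3 (-1.55, adjusted p = 0.036), day 5 replicate 2 (adjusted p = 0.041) or day 5 replicate 3 (adjusted p = 0.022), and the alternatives gave an adjusted p from 0.022 to 0.70.

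**Figure D3:**
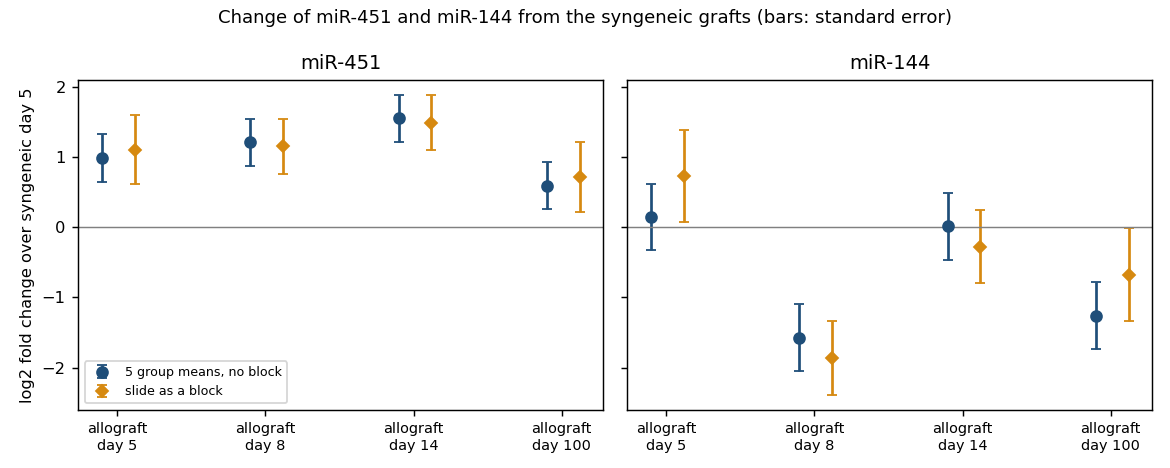
Points are the log2 fold change of each allograft group over the syngeneic day 5 grafts for miR-451 (left) and miR-144 (right), and bars are standard errors. Circles are from the fit without a block and diamonds from the fit with the slide as a block. On day 8, miR-451 was higher by 1.21 and miR-144 was lower, at -1.57.

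In order from lowest to highest, the measured means of miR-144 were -4.90 ± 0.21 on day 8, -4.59 ± 0.54 on day 100, -3.33 ± 0.61 in the syngeneic grafts, -3.31 ± 0.47 on day 14 and -3.18 ± 1.07 on day 5 (scaled log2 signal, SD, n = 3). The first 2 of these hold undetected values. No neighbors in this order passed the test, with limma adjusted p of 0.66, 0.056, 0.99 and 0.88 from the bottom of the order to the top. Without day 100 replicate 1, the first of these was 0.43 and the next was 0.17. Among the allografts, miR-144 was lower on day 100 than on day 5, 2 groups of the same slide, by -1.41 ± 0.47 on the log2 scale (limma, adjusted p = 0.038), where 21.4% of the miRNAs passed as lower. Without day 100 replicate 1 the difference was -1.10 (adjusted p = 0.14) and without day 5 replicate 3 it was -0.81 (adjusted p = 0.19). The call was also lost without day 5 replicate 1, day 100 replicate 3, day 14 replicate 2 or any day 8 array, with adjusted p from 0.050 to 0.061. Within slide 2 alone the adjusted p was 0.15, and over all alternatives it ranged from 0.0052 to 0.60.

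MiR-144 was higher on day 14 than on day 100 by 1.27 ± 0.47 on the log2 scale (limma, adjusted p = 0.039), and the arrays did not overlap. Of the miRNAs tested, 33% passed as higher in this comparison and 39.8% did not overlap in that direction. Without the noisy day 100 replicate 1 the difference was 0.96 (adjusted p = 0.15), without day 14 replicate 3 it was 1.04 (adjusted p = 0.13), and blocking on slide gave 0.40 (adjusted p = 0.73). The call was also lost without day 14 replicate 2 (1.27) or day 8 replicate 3 (1.27). The alternatives run gave an adjusted p from 0.0016 to 0.73. Between day 8 and day 14, both on slide 1, miR-144 was 3.00-fold higher on day 14 by the measured values. The arrays did not overlap, as for 19.4% of the miRNAs. Its size is not settled, since miR-144 was undetected on day 8, and the log2 fold change ran from 0.38 to 1.82 over all alternatives. The difference missed the threshold in the fit to all groups (limma, adjusted p = 0.067) and passed it within slide 1 (adjusted p = 0.042), with adjusted p from 0.012 to 0.63 over all alternatives. It also passed without syngeneic replicate 2 (adjusted p = 0.0495) or day 5 replicate 3 (adjusted p = 0.044). Of the miRNAs tested, 5.83% passed in either direction between these days in the fit to all groups.

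Because both miRNAs were read on the same array, their log2 ratio is not moved by dividing an array by a constant wherever both signals lie above the floor, although quantile normalization, which treats each signal by its rank, does move it. The ratio compares how unequally they changed, and its own size has no meaning, since probes differ in brightness. In the syngeneic grafts the log2 ratio of miR-451 over miR-144 was 3.54, 1.51 and 3.22, and on allograft day 5 it was 3.93, 4.08 and 2.77. On day 8 it was 5.33, 5.79 and 5.49. The 3 day 8 values were above those of every other array but day 100 replicate 1. Its value of 5.46 was set by the floor, at which miR-144 lay there, and is not a limit. On day 14 the log2 ratio was 4.74, 4.08 and 4.06, and on the other day 100 replicates it was 3.62 and 4.75.

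The mean log2 ratio was 2.76 ± 1.09 in the syngeneic grafts and 5.54 ± 0.23 on day 8 (SD, n = 3). By the measured values the difference was 2.78, and all 3 day 8 arrays were above all 3 syngeneic arrays. MiR-144 was not well above background on day 8, so the size of this difference is not settled, and with normexp it was 1.71. The two-sided exact permutation test gave p = 0.1, the smallest p that 3 arrays against 3 allow, and 0.2 after Benjamini-Hochberg adjustment over 10 comparisons. This outcome was fixed beforehand, because the day 8 arrays lay above the syngeneic arrays for miR-451 and below them for miR-144. It is therefore not further evidence, and how often the ratio of other miRNA pairs separates in this way was not tested. The difference was 2.16 at the lowest when any array was left out. The ratio was also higher than in the syngeneic grafts, with no overlap, by 1.54 on day 14 and by 1.85 on day 100, each at the same smallest exact p of 0.1. With single arrays left out these differences ran from 0.91 to 1.93 on day 14 and from 1.23 to 2.35 on day 100, the lowest of both without syngeneic replicate 2. The day 100 difference was 1.43 without its replicate 1, 0.99 with normexp and 1.39 when blocking on slide. Its size is not settled either, because miR-144 was detected on 1 of the 3 day 100 arrays. The undetected day 100 replicate 2, at 3.62, lay just above syngeneic replicate 1, at 3.54. From day 8 to day 14 the log2 ratio was lower by the measured values, with a difference of -1.24, and the arrays did not overlap. On day 5 the difference from the syngeneic grafts was 0.84, the arrays overlapped and the exact permutation p was 0.4.

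**Figure D4:**
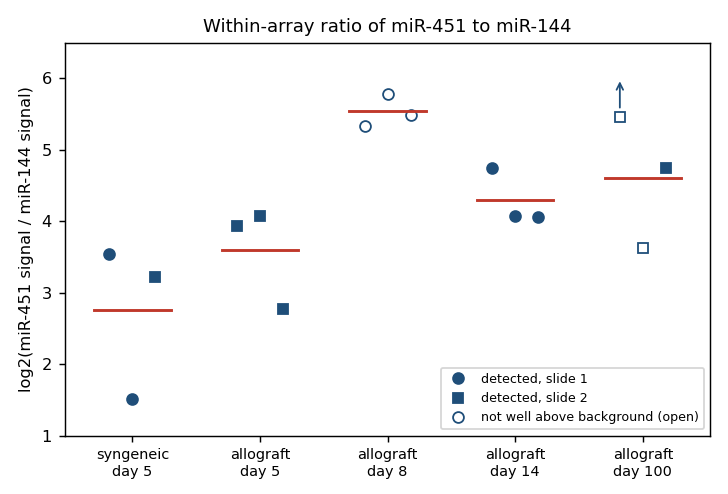
Each point is the log2 ratio of the miR-451 signal over the miR-144 signal on 1 array, red lines are group means, and open symbols mark arrays on which miR-144 was not well above background. The arrow marks day 100 replicate 1, where the ratio was set by the floor and is not a limit. The 3 day 8 arrays lie between 5.33 and 5.79.

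Across arrays the 2 miRNAs showed no clear relation. Over the 10 arrays that detected both, Pearson's r between their scaled log2 signals was 0.094 (permutation p = 0.80) and Spearman's rho was 0.22 (permutation p = 0.54). Without syngeneic replicates 2 and 3, which lie farthest from the median of miR-451, r was 0.48 over 8 arrays (exact permutation p = 0.24). Each slide held 5 such arrays, too few for a value within a slide. Over all arrays, with undetected values as measured or at the floor, r was -0.34 on slide 1 (n = 8) and 0.42 on slide 2 (n = 7). This was the only pair computed, since miR-486 was detected on 1 array.

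MiR-486 was at or near background in all groups. Its detected array was allograft day 14 replicate 3, where 6 of the 10 spots of probe 1 were well above background at a mean intensity of 14.4 units. The signal summed over its 2 probes was 20.7 units there. This array also had the highest unscaled signals of the 15 for miR-451 (2364 units) and miR-144 (142 units), and it detected the most mouse miRNAs, 115. On all 15 arrays the scaled signal of miR-486 lay under the floor, so it has no order among groups and no fold change.

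The same probe of miR-486 read 7.44, 5.92 and 3.91 units on the 3 day 8 arrays and 7.91 and 4.12 units on the other day 14 arrays. In the syngeneic grafts it read 0.90, -0.23 and -1.62 units. None of these was well above background, but the day 8 and day 14 values were all above the syngeneic ones. Of the miRNAs tested, 33% lay above the syngeneic arrays in this way on each of these days, after scaling. How many undetected probes did so was not computed. The 75th percentiles were lower in the syngeneic grafts (395 to 616 units) than on day 8 (718 to 829) and day 14 (750 to 1018), and these miR-486 values are unscaled. Among the 1421 miRNA probes that no array detected, the probe ranked at percentiles from 93.5 to 98.9 on the day 8 arrays. Its percentile was 95.1 or higher on the day 14 arrays and lay between 33.3 and 84.9 in the syngeneic grafts. On the other allografts it ranged from 63.2 to 92.2 on day 5 and from 61.5 to 96.9 on day 100, where replicate 3 read 4.11 units, above day 8 replicate 3. Probe 2 was detected on no array. These ranks are a description and were not tested.

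The miRNAs with the pattern most like that of miR-451 were sought among the 51 others detected on all arrays, by Pearson's r of the scaled log2 signals over the 15 arrays. They were miR-15b (0.80), miR-23a (0.79), miR-16 (0.77), miR-223 (0.74) and miR-146a (0.73). The arrays share the scaling and the group structure, so these values carry no p. Within slide 1 the 5 had r from 0.80 to 0.91, and within slide 2 from 0.34 to 0.66. Once the group means were taken out, r fell to 0.28 for miR-15b, 0.41 for miR-23a, 0.13 for miR-16, -0.23 for miR-223 and -0.040 for miR-146a, so the likeness lay mainly between groups and not between mice of a group.

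Other miRNAs that are abundant in red blood cells, though made in many cell types, were followed beside the 3 markers. Of the 10 on this list, all on the array, 8 were tested. In limma 5 of them passed as higher than in the syngeneic grafts on day 5 and 5 on day 8, followed by 4 on day 14 and 1 on day 100, and none passed as lower. Over all miRNAs tested, 18.4%, 23.3%, 27.2% and 16.5% passed as higher on these days, and on day 100 the 1 of 8 is near that share. Their median log2 fold change was 0.66, 0.88, 0.74 and 0.25 over these 4 days, against 0.12, 0.14, 0.074 and 0 over all miRNAs tested. With the slide as a block, 0, 8, 5 and 1 passed as higher, and 2 passed as lower on day 100. On day 14, miR-15b, which shares its seed with miR-16, was higher by 2.28 on the log2 scale, miR-25 by 1.16, miR-93, of the miR-17 group, by 0.95 and miR-16 by 0.89. On day 8, when miR-144 was lower, miR-16 was higher by 0.84, miR-25 by 1.20 and miR-93 by 0.95. All 8 tested had a positive log2 fold change on day 8, as did 63 of the 103 miRNAs tested, against -1.57 for miR-144. The lowest of the 8 was miR-185, at 0.13 (limma, adjusted p = 0.68).

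Markers of other cell types moved in the same comparisons. Of 6 leukocyte miRNAs tested, of 8 on the array, 6 passed as higher on day 5 and on day 14, 4 on day 8 and 3 on day 100 (limma), against the same 18.4%, 27.2%, 23.3% and 16.5% of all miRNAs tested. In order of time they had median log2 fold changes of 1.87, 1.59, 1.96 and 0.49. With the slide as a block, 2, 4, 5 and 1 were higher. The summed scaled signal of the leukocyte list ran from 0.71 to 1.78 in the syngeneic grafts and from 3.23 to 8.38 on day 5, from 2.47 to 2.88 on day 8, from 3.30 to 4.49 on day 14 and from 1.25 to 1.66 on day 100. MiR-150, a lymphocyte marker, was detected on no array. The summed scaled signal of the 3 erythroid markers, nearly all of it from miR-451, ran from 0.60 to 1.21 in the syngeneic grafts, from 1.10 to 1.99 on day 5, from 1.58 to 1.62 on day 8, from 1.82 to 2.48 on day 14 and from 0.69 to 1.45 on day 100. The leukocyte sum was highest on allograft day 5 replicate 3, at 8.38, which was also the array with the highest scaled miR-144. Among the syngeneic arrays, replicate 2 was highest in both as well, at 1.78 for the leukocyte sum and -2.69 for miR-144. These arrays had the lowest 75th percentiles used for scaling, 457 and 395 units. Not all scaled values on them were high, since syngeneic replicate 2 had the lowest scaled log2 signal of miR-451, at -1.18. The part of the scaling was not tested. Unscaled, miR-144 was highest on day 14 replicate 3, at 142 units against 116 on day 5 replicate 3. Syngeneic replicate 2 remained the highest syngeneic array, at 61.4 units. The erythroid sum was highest on day 14. The part of leukocytes in the values of miR-451 and miR-144 was not tested.

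**Figure D5:**
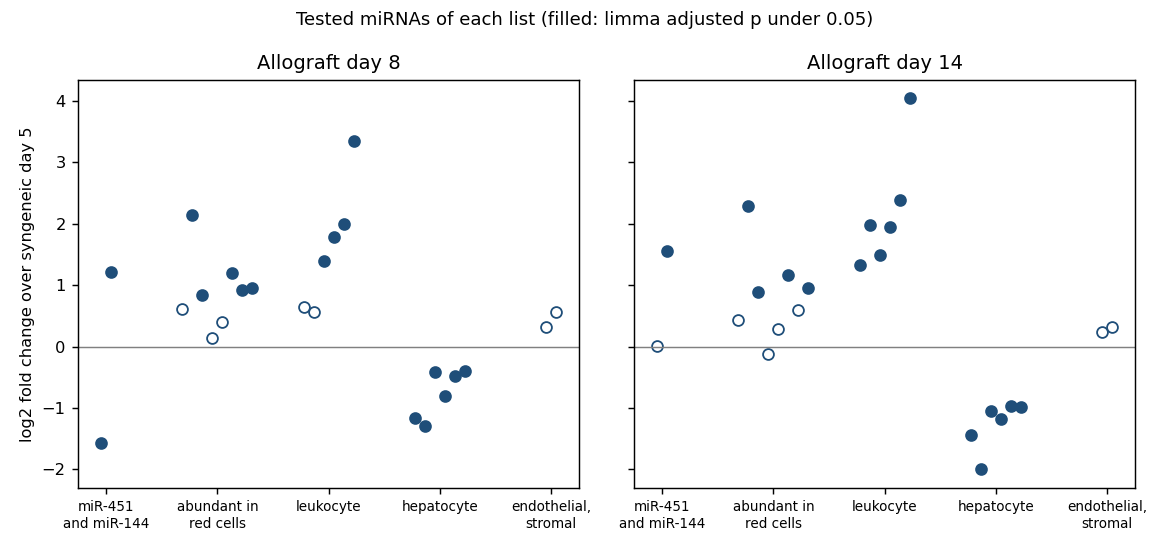
Each point is the log2 fold change over the syngeneic day 5 grafts of 1 tested miRNA of a list on day 8 (left) and day 14 (right), filled where the limma adjusted p was under 0.05. MiR-451 was higher on both days, whereas miR-144 lay at -1.57 on day 8 and at 0.012 on day 14.

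Of the 6 hepatocyte miRNAs, all tested, all passed as lower on day 8 and day 14 and 4 passed on day 5 and day 100 (limma), with medians of -0.48, -0.64, -1.12 and -0.45 in order of time. Of all miRNAs tested, 6.8%, 17.5%, 18.4% and 14.6% passed as lower on these days. Blocking on slide left 2, 4, 6 and 5 of the 6 as lower. The summed scaled signal of this list ran from 31.1 to 37.0 in the syngeneic grafts, from 22.6 to 26.7 on day 5, from 23.4 to 25.2 on day 8, from 13.6 to 17.6 on day 14 and from 23.7 to 28.2 on day 100. Of the endothelial and stromal list, 5 of 6 miRNAs were on the array and 2 were tested, and neither passed in any of the 4 comparisons without the slide block. Among the hepatocyte miRNAs, miR-101a, which shares bases 2 to 7 with miR-144, had a log2 fold change of -1.17 on day 8, -1.45 on day 14 and -1.42 on day 100. On the same days miR-144 was at -1.57, 0.012 and -1.26. Both were thus lower by the measured values on days 8 and 100, although miR-144 did not pass on day 100, and they differed on day 14. A link between the 2 was not tested.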

How the data were processed

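MiRNA expression was measured in total RNA of 15 mouse liver grafts with 1-color Agilent 8 × 15 K mouse miRNA arrays labeled with Cy3. The authors deposited spot intensities as written by Feature Extraction, Agilent's scanner software (per the file headers, version 9.5.1.1). These intensities have the background subtracted and are not normalized between arrays. Each spot carries flags for background and outliers. A series-wide table of log2 values, likewise deposited, was not used here.

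Spot intensities were averaged per probe, leaving out outlier spots (29 among the 3 miRNAs, none saturated), and probe means were added up per miRNA. Detection of a probe required a share of 0.5 of its spots well above background, and detection of a miRNA required 1 such probe. Each array was scaled to its 75th percentile, computed from the 52 miRNAs that all arrays detected. Scaled signals under 0.0270 were set to this floor before taking log2. The lowest detected scaled signal of each array was found, and the floor is the median of these. Of the values tested, 8.28% lay at it, so a fold change that rests on such values can be understated.

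A mean for each group was fitted with limma (3.58.1, under R 4.3.3) using every array. The 103 miRNAs that some group detected on each of its 3 arrays were tested. Benjamini-Hochberg adjustment ran over these 103 in a comparison, and adjusted p-values below 0.05 passed. Adjusted p-values are from this fit unless an alternative is named. The fit was tested on simulated data. Two-sided permutation tests used scipy (version 1.17.1), exact below 10 arrays and with 100000 resamples otherwise. Alternatives covered the scaling, floor, filter, probe summary, background, slide, replicate number, single arrays left out and the t-test that the study's methods name.

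The 3 miRNAs are always named, with the 5 miRNAs whose pattern was most like that of miR-451, and of each list the miRNAs with the largest differences. Some further list members, and miR-101a for its sequence, were named after their values were seen. The miRNAs, lists and tests were chosen with earlier results of these data known, and the ratio of miR-451 over miR-144 was added after seeing the values. The 3 arrays of a group are numbered replicates per the labels, and the study states 3 mice for each time point. No spot had an identical intensity on any pair of arrays of a group (0%). The number of arrays limits the precision.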

Additional observations from a re-analysis of the deposited data

How the results depend on the processing

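Under the alternatives to the fit of 1 mean per group, miR-451 kept its direction in all 4 comparisons with the syngeneic grafts and in the 3 comparisons of day 14 with other allograft days, and miR-144 kept its direction on days 8 and 100 and between day 14 and days 8 and 100. Left unscaled, the median of all miRNAs tested rose by 0.33 to 0.63 over the 4 comparisons with the syngeneic grafts, and on this scale miR-451 was higher by 1.53, 1.84 and 2.32 for days 5, 8 and 14. The cause of the changes below was not tested, except where fewer arrays entered.

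For miR-451 on day 5 the call was lost at 0.99 with no filter, with the floor divided by 4, with only the 2 groups fitted and in the methods' t-test, adjusted or not. It was also lost with the percentile over all mouse miRNAs (1.01), median scaling (1.00), the total gene signal (0.95), normexp (0.73) and the slide block or slide 2 alone (1.10). On day 8 it was lost with the percentile over all miRNAs (1.14), and at 1.21 with no filter or the adjusted t-test, which also ended the day 14 call at 1.55. From day 14 to day 100 it was lost with the percentile over all miRNAs (0.76), quantile scaling (0.89), the slide block (0.78), and at 0.96 with no filter or the t-test, adjusted or not.

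For miR-144 on day 8 the call was lost with normexp (-0.71) and at -1.57 with no filter, the lower floor or the adjusted t-test. On day 100 it passed with the total gene signal (-1.44) and with trend and robust moderation (-1.26). From day 14 to day 100 it was lost with the percentile over all miRNAs (1.03), quantile scaling (0.97), the brightest probe (0.96), the mean log2 of probes (1.05), normexp (0.22), the slide block (0.40), and at 1.27 with no filter or the adjusted t-test. From day 8 to day 14 it passed unscaled (1.73) and at 1.58 with 2 groups, the unadjusted t-test, trend moderation or slide 1 alone. Its sign turned on day 5 with quantile scaling (-0.022) and normexp (-0.25). On day 14 it turned with the percentile over all miRNAs (-0.063), quantile scaling (-0.29), the brightest probe (-0.032), the total gene signal (-0.075), normexp (-0.33) and the slide block or slide 1 alone (-0.28), and between days 14 and 5 unscaled (0.099). The ratio of miR-451 over miR-144 on day 8 was 1.71 above the syngeneic grafts with normexp. The correlation turned to -0.020 over all 15 arrays and to -0.34 on slide 1.

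With single arrays left out, miR-451 changed by 0.68 to 1.35 on day 5, 0.91 to 1.57 on day 8, 1.25 to 1.91 on day 14 and 0.29 to 0.96 at day 100, and day 14 exceeded day 100 by 0.62 to 1.18, day 5 by 0.38 to 0.75 and day 8 by 0.22 to 0.44. MiR-144 changed by -0.45 to 0.58 on day 5, -1.86 to -1.25 on day 8, -0.28 to 0.33 on day 14 and -1.55 to -0.94 at day 100, and day 14 differed from day 100 by 0.96 to 1.51, from day 5 by -0.56 to 0.46 and from day 8 by 1.35 to 1.82. The correlation ranged from -0.10 to 0.49.

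The number of miRNAs called against the syngeneic grafts was 26, 42, 47 and 32 on days 5, 8, 14 and 100. It was 5 and 16 on days 5 and 100 with the slide block, 5, 21, 28 and 6 with no filter, 15, 27 and 31 on days 5, 8 and 14 among miRNAs detected on all arrays, and 2, 20, 21 and 1 in the adjusted t-test. Replicate numbers did not pair the arrays: deviations of same-numbered arrays correlated at a median of -0.053 over 30 pairs. With the replicate number as a block the log2 fold changes were the same, at 1.21 for miR-451 on day 8 (adjusted p = 0.0043) and -1.57 for miR-144 (adjusted p = 0.021), and 25, 38, 46 and 30 miRNAs were called on days 5, 8, 14 and 100. Signal over background limited miR-144 and miR-486, since 5 and 14 of the 15 arrays did not detect them.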
